A study of Mus musculus with 2 samples.

Results

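B cell precursors in the mouse olfactory mucosa were 262 of 8298 kept cells (3.16%, exact 95% binomial interval 2.79 to 3.56), 41 in library 1 and 221 in library 2. UMIs are unique molecular identifiers, each standing for 1 captured transcript. Kept cells had 1000 UMIs or more, 500 detected genes or more, and mitochondrial genes made up no more than 10% of their UMIs. A kept cell was a member if it held at least 2 UMIs of Cd79a and Cd79b together, at least 1 UMI of Vpreb1, Vpreb3 and Igll1 together, no UMI of Ighd and no UMI of Cd3e, Cd3d or Cd3g. The members were therefore selected on measured transcripts, and levels of these 9 genes describe the selection. Single cells came from 1 male C57BL/6 mouse at postnatal day 28, in which a nostril had been closed at postnatal day 14; closed (L) and open (R) sides of that same animal gave 1 library each. Per the labels, frozen dissociated cells passed dead cell removal before capture with a 3' droplet kit. The matrix marks the libraries only by barcode suffix, and the sources used here tie neither suffix to a side, so the libraries are called library 1 and library 2. With 1 library on each side there is no replicate, no p-value was computed, and every interval covers counting error only.

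B lymphocytes form in the bone marrow. Early precursors cut and join the heavy chain gene segments with the Rag1 and Rag2 recombinase, while Dntt (terminal transferase) adds bases at the joints. The finished heavy chain, Ighm, is first displayed with a surrogate light chain made of a VpreB protein and lambda5, which is the product of Igll1. Signals from this pre-B cell receptor and from the interleukin 7 receptor (Il7r) drive divisions, after which the recombinase acts on the light chain genes. Cells with a conventional kappa (Igkc) or lambda (Iglc) light chain then gain Ms4a1 (CD20), class II antigen presentation genes and, last, Ighd. Vpreb3 is a VpreB-like protein that binds newly made heavy chains and is transcribed over a longer span of this path than Vpreb1 and Igll1.

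The genes that carry the rule are shown by the 250 bases before their RefSeq start sites (build GRCm38.p6, which is mm10), because 2 of them share a locus and the third lies apart from it. Vpreb1 (chr16:16868403-16870843, minus strand) and Igll1 (chr16:16860671-16863985, minus strand) lie side by side, with RefSeq starts 5270 bases apart. Vpreb3 lies on chromosome 10 (chr10:75943057-75949657, plus strand). The windows printed 5' to 3' are chr16:16869256-16869505 (minus strand) for Vpreb1, chr16:16863986-16864235 (minus strand) for Igll1 and chr10:75948050-75948299 (plus strand) for Vpreb3. For Vpreb1 and Vpreb3 the RefSeq start lies inside the gene span given above, so their windows also lie inside it. Only the Igll1 window lies directly upstream of its span. Capitals mark matches to CCCNNGGG, the core recognised by EBF factors, and to the E-box CANNTG, bound by E2A and related factors; both motifs read the same on both strands.
Vpreb1: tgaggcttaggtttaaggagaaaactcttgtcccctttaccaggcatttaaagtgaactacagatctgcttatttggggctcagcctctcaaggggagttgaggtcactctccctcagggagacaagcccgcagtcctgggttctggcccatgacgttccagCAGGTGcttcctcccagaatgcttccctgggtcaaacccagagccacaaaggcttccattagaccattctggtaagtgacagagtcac
Igll1: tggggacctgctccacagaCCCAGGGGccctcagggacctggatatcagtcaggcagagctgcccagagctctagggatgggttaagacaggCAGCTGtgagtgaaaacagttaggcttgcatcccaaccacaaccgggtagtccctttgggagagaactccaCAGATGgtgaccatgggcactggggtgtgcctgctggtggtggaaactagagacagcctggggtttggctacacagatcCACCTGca
Vpreb3: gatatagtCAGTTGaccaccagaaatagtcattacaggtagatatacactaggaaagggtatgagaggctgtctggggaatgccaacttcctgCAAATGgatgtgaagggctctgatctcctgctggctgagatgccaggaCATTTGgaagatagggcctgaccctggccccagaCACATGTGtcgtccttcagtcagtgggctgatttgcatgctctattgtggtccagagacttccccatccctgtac
The Vpreb1 window held 1 E-box and no CCCNNGGG. The Igll1 window held 3 E-boxes and 1 CCCNNGGG, which began 231 bases before the start. The Vpreb3 window held 5 E-boxes, of which the last pair overlapped, and no CCCNNGGG. Of all 32851 promoter windows of this length, 11.8% held CCCNNGGG and 66.2% held an E-box, so an E-box match was common, and a match describes letters only.

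The marker genes of the label were present in the members. Cd79a, a signalling chain of the B cell receptor, stood at 4184 CPM (UMIs of the gene over all UMIs of the group, times 1000000) in library 1 and 2748 CPM in library 2, with medians of 8 and 7 UMIs per cell. Vpreb3 was at 3568 and 2328 CPM and had at least 1 UMI in each of the 262 members. Ebf1, a transcription factor that commits cells to the B lineage, was at 5547 and 3313 CPM. Ebf1 does not mark B cells alone in this tissue: olfactory neurons also use it, and cells with at least 5 Omp UMIs held 1502 and 1406 CPM. T cells (at least 2 Cd3 UMIs and, by their rule, no UMI of Cd79a or Cd79b) held no Vpreb1 UMI in either library. In sustentacular cells, the supporting cells of the epithelium (at least 5 UMIs of Cyp2g1), Vpreb1 was at 0.557 and 0.531 CPM and Vpreb3 at 20.1 and 17.1 CPM.

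The members were shallow cells. Their median was 1490 UMIs in library 1 and 1507 in library 2, against 5528 and 5139.5 over all kept cells, and 130 of the 262 had fewer than 1500 UMIs. Summed, they held 84367 and 633289 UMIs, so 1 UMI was worth 11.9 CPM in library 1 and 1.58 CPM in library 2. No barcode was shared between the members of the libraries. At the edges of the rule, 29 members had exactly 1 UMI of Vpreb1, Vpreb3 and Igll1 together, 6 had exactly 2 Cd79 UMIs, and 44 cells met everything but for 1 Ighd UMI.

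Some members also held transcripts of other cell types. Of the 262, 27 had at least 2 UMIs of the sustentacular genes Cyp2g1 and Cyp1a2, 3 had at least 50 UMIs of the neutrophil genes S100a8 and S100a9, 2 had olfactory neuron markers (Omp, Gap43) and 1 had macrophage markers, 32 cells in all. The neutrophil list of 15 genes summed to 35.6 CPM in library 1, with S100a8 and S100a9 at 0, and to 13712 CPM in library 2, or 184 CPM without the marker-holding cells. The sustentacular and gland list of 10 genes summed to 4824 and 7273 CPM, and to 379 and 6247 CPM without those cells. The T and NK cell list of 17 genes summed to 23.7 and 30 CPM, with Trbc1, Cd4, Cd8a and Nkg7 at 0 in both libraries (and the Cd3 genes by rule). Detected were 1 gene (Lck) in library 1 and 4 (Lck, Trac, Trbc2 and Klrb1c) in library 2. That list was at 36.2 and 118 CPM in B cells with Ighd and at 61 and 82.1 CPM in other cells. The blood stem and progenitor list of 11 genes summed to 213 and 243 CPM, against 466 and 475 CPM in other cells, with Cd34 at 0. The plasmacytoid dendritic cell list of 8 genes summed to 119 and 103 CPM, with Siglech at 0. That list was at 101 and 97.9 CPM in B cells with Ighd and at 81.1 and 101 CPM in other cells. Doublets were not removed, and values without the 32 cells are given for some of the results.

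The precursors were a larger share of library 2 than of library 1. They were 41 of 3032 kept cells in library 1 (1.35%, 0.972 to 1.83) and 221 of 5266 in library 2 (4.2%, 3.67 to 4.77), and these intervals do not overlap. The mature comparison group, Ighd+ B cells (the same Cd79 and Cd3 rule, at least 1 Ighd UMI and none of Vpreb1, Vpreb3 and Igll1), were 49 cells (1.62%, 1.2 to 2.13) and 98 cells (1.86%, 1.51 to 2.26), with overlapping intervals. Of precursors and Ighd+ B cells together, precursors made up 45.6% (35 to 56.4) in library 1 and 69.3% (63.9 to 74.3) in library 2, so the balance of the 2 groups also differed beyond counting error. Among all cells with at least 2 Cd79 UMIs and no Cd3 UMI, called Cd79+ cells here, precursors were 41 of 138 (29.7%, 22.2 to 38.1) in library 1 and 221 of 427 (51.8%, 46.9 to 56.6) in library 2. A further 21 and 65 cells held an Ighd UMI and also a UMI of Vpreb1, Vpreb3 or Igll1, 15.2% of the Cd79+ cells in each library. Since each library is 1 preparation of 1 tissue piece, side, dissection and preparation cannot be told apart in this difference.

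**Figure D1:**
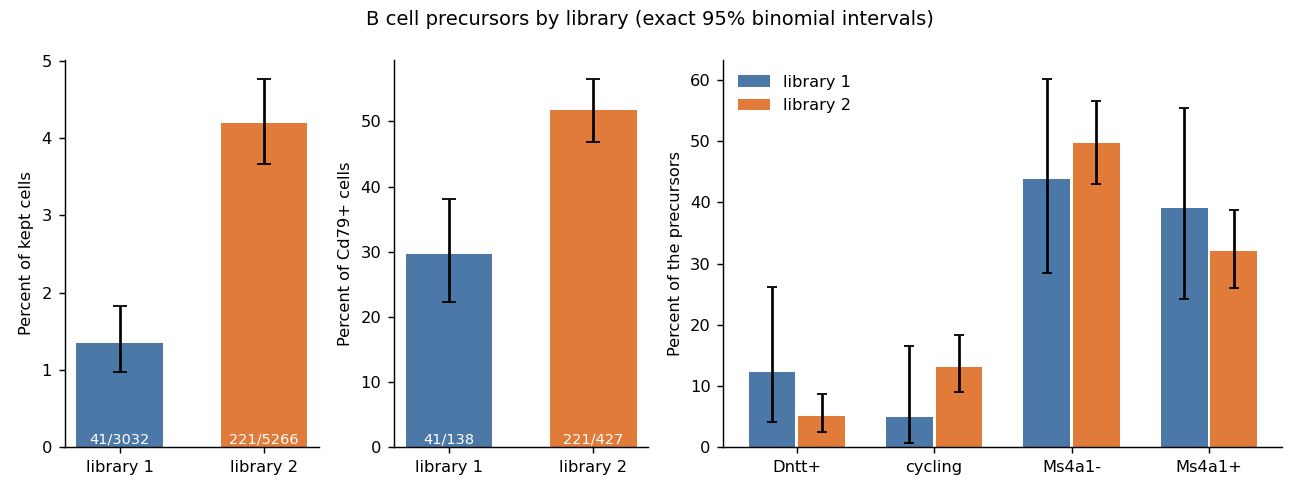
B cell precursors as a percent of kept cells (left) and of Cd79+ cells (middle), and the 4 groups of precursors as a percent of the precursors (right), for library 1 and library 2; bars are shares, whiskers exact 95% binomial intervals, and numbers in the bars give cells. Library 2 is above library 1 in the left and middle panels (4.2% against 1.35%, and 51.8% against 29.7%), while the whiskers overlap in each of the 4 groups on the right.

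The members were split into 4 groups by genes outside the rule: 16 Dntt+ cells (at least 1 Dntt UMI), 31 cycling cells (no Dntt, at least 2 UMIs of Mki67 and Top2a), and the rest into 128 Ms4a1- and 87 Ms4a1+ cells. In library 1 the groups held 5, 2, 18 and 16 cells (12.2%, 4.88%, 43.9% and 39% of its precursors), and in library 2 they held 11, 29, 110 and 71 (4.98%, 13.1%, 49.8% and 32.1%). The plot of shares by library shows that the intervals of the libraries overlap for each group. Cycling cells were the deepest, with a median of 5708 UMIs against 1914 in Dntt+, 1375 in Ms4a1- and 1437 in Ms4a1+ cells, and held 266222 of the members' 717656 UMIs. The split rests on few UMIs: 3 of the 16 Dntt+ cells had 1 Dntt UMI and 23 of the 87 Ms4a1+ cells had 1 Ms4a1 UMI.

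The transcripts of the classical surrogate light chain were restricted to a minority of the members. Vpreb1 or Igll1 was found in 43 of 262 (16.4%, 12.1 to 21.5), 7 of 41 in library 1 and 36 of 221 in library 2, and the other 219 had to hold Vpreb3 to meet the rule. Vpreb1 or Igll1 was found in 16 of 16 Dntt+ cells, 17 of 31 cycling cells (54.8%, 36 to 72.7), 10 of 128 Ms4a1- cells (7.81%, 3.81 to 13.9) and 0 of 87 Ms4a1+ cells, which allows up to 4.15%. The deepest group was not the one with the most: after thinning every cell to 1000 UMIs, Vpreb1 was in 87.5% of Dntt+, 29% of cycling, 3.91% of Ms4a1- and 0% of Ms4a1+ cells, against 0% of T cells and 0.0849% of sustentacular cells.

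As a level, Vpreb1 was at 4268 CPM in library 1 and 3520 in library 2 in Dntt+ cells, 82.8 and 452 in cycling cells, 140 and 80.8 in Ms4a1- cells, and 0 in Ms4a1+ cells of both libraries. The library 1 value of cycling cells rests on 2 cells. Over both libraries, Igll1 was at 3552 CPM in Dntt+ (3026 to 4143), 665 in cycling (570 to 770), 146 in Ms4a1- (102 to 202) and 0 in Ms4a1+ cells (up to 23.1). Vpreb1 in library 2 therefore had the same order over the 4 groups as Igll1 over both libraries. In library 1, Vpreb1 was lower in cycling than in Ms4a1- cells. Vpreb3 was at 4736 CPM in Dntt+, 1371 in cycling, 3327 in Ms4a1- and 2349 in Ms4a1+ cells. All 3 are genes of the rule, and members without Vpreb1 and Igll1 had to hold Vpreb3, so these levels and their order describe the selection. Vpreb2, a VpreB copy whose longest GENCODE transcript was 97.5% identical to that of Vpreb1 over 686 aligned bases, was at 307, 52.6, 12.2 and 0 CPM; reads of the pair may be split between them, so their separate levels are uncertain.

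**Figure D2:**
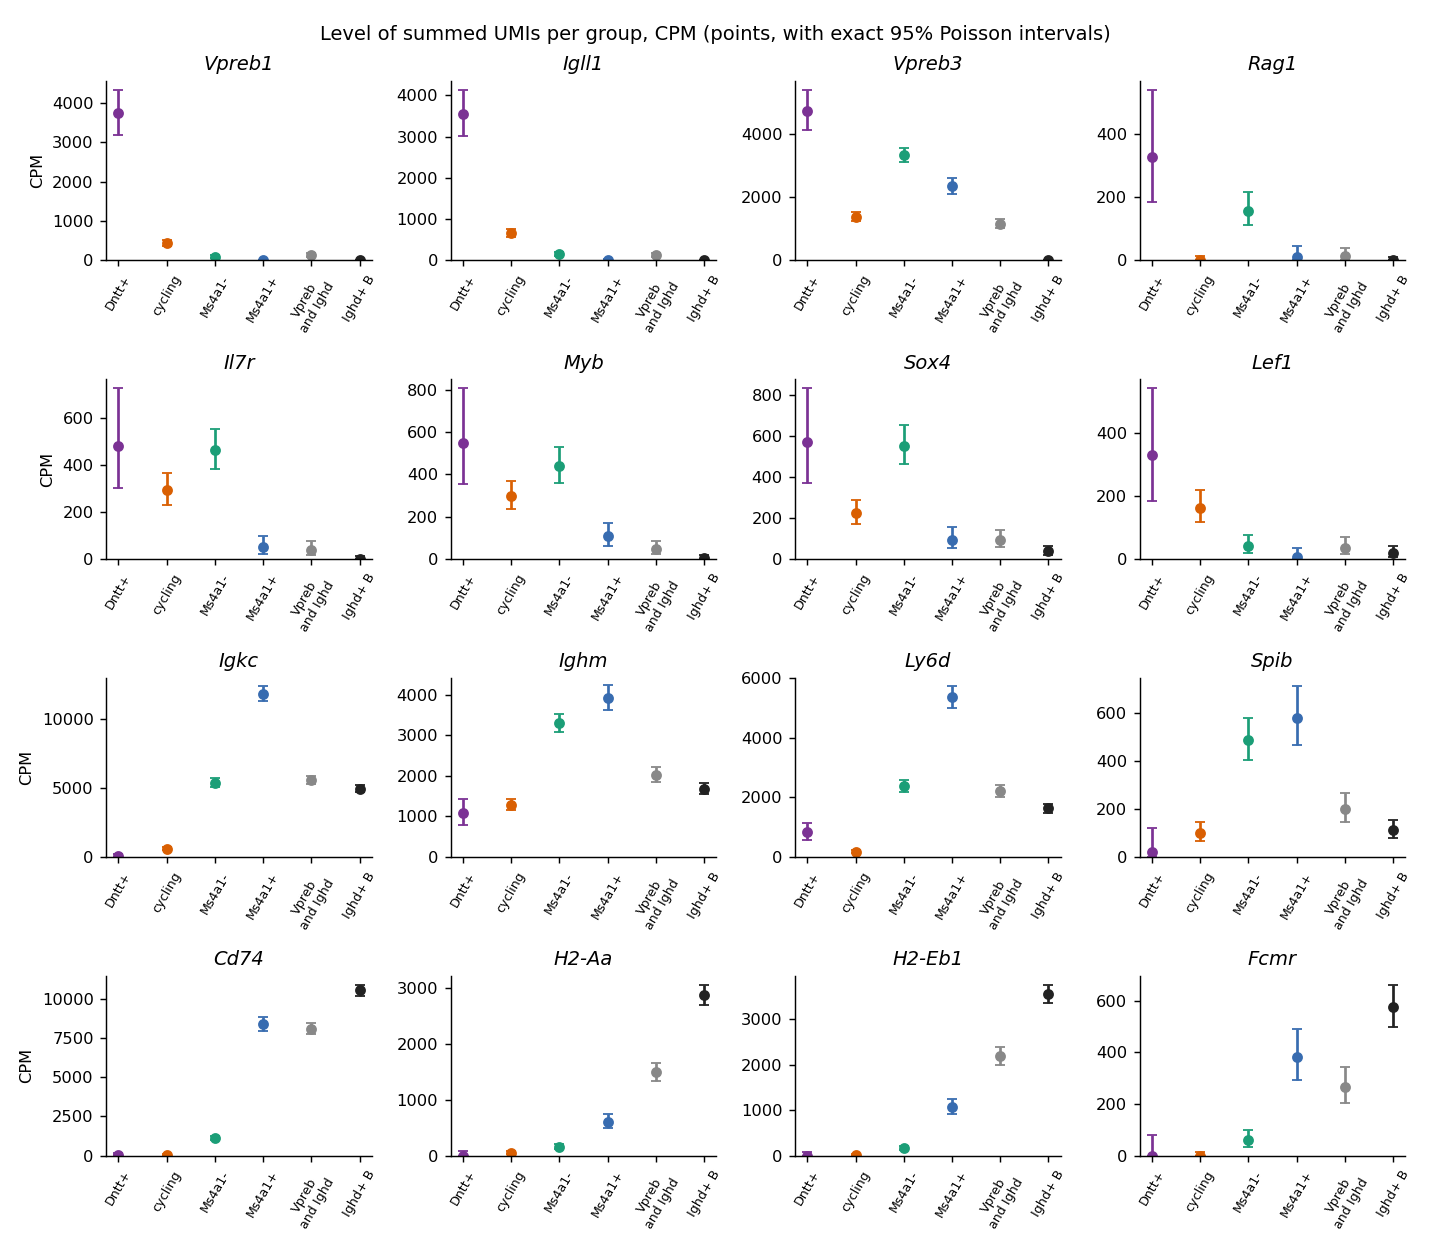
Levels in CPM of 16 genes (one panel each, linear axis from 0) in Dntt+, cycling, Ms4a1- and Ms4a1+ precursors and in 2 other groups. These are the 86 Cd79+ cells with an Ighd UMI and a UMI of Vpreb1, Vpreb3 or Igll1, and the Ighd+ B cells. Points are summed UMIs of both libraries and whiskers exact 95% Poisson intervals. Vpreb1 and Igll1 are highest in Dntt+ cells, Rag1 is at 0 in cycling cells with values on either side of them, and Cd74, H2-Aa and H2-Eb1 are highest in Ighd+ B cells. The Ighd+ B cells are at 0 for Vpreb1, Igll1 and Vpreb3 by their rule.

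Recombinase transcripts were highest in Dntt+ and Ms4a1- cells and absent from the cycling cells. Rag1 was at 329 CPM in Dntt+ cells (184 to 542; 10 of 16 cells), at 0 in the 31 cycling cells (up to 13.9), at 158 in Ms4a1- cells (113 to 217; 30 of 128 cells) and at 12.5 in Ms4a1+ cells (2 UMIs). In libraries 1 and 2, Rag1 was at 474 and 273 CPM in Dntt+, 251 and 143 in Ms4a1-, and 41.9 and 7.36 in Ms4a1+ cells. It was at 0 in cycling cells of both, but library 1 had 2 such cells, where 1 UMI is 82.8 CPM. Cycling and Ms4a1+ cells cannot be ranked, since the bound of 13.9 CPM covers the 12.5 CPM of Ms4a1+ cells. The cycling cells lacked Rag1 although they were the deepest group. Rag2 had only 6 UMIs, 5 of them in Dntt+ cells and 1 in a Ms4a1- cell. Dntt+ cells also stood out for Arpp21 at 154 CPM, against 3.76, 4.06 and 0 in the other groups. Genes named for Dntt+ cells by the size of their difference were Vpreb1, Igll1, Rag1, Gimap6, Selenop, Pnp, Cplx2 and Pmf1, with log2 ratios to the other members from 2.4 (Pmf1) to 4.18 (Vpreb1). For Pnp, a purine nucleoside phosphorylase, 72.2% of the UMIs came from 3 cells.

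The interleukin 7 receptor and several early transcription factors were lowest in Ms4a1+ cells. Il7r was at 482 CPM in Dntt+, 293 in cycling, 463 in Ms4a1- and 50.1 in Ms4a1+ cells, and at 0 in Ighd+ B cells. Myb, which sustains early lymphoid precursors, was at 548, 297, 439 and 107 CPM in the same order. Sox4, another early lymphoid factor, was at 570, 222, 552 and 94 CPM. Lef1, a Wnt pathway factor of early B cells, was highest in Dntt+ cells (329 CPM) and lower in each next group (162, 40.6 and 6.26). Spib, an Ets factor of later B cells, had nearly the opposite order, at 21.9, 101, 487 and 583 CPM. Pax5, the factor that maintains B cell identity, was at 65.8 CPM in Dntt+ cells on 3 UMIs and between 135 and 150 CPM in the other groups, a range within their counting intervals.

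Heavy and light chain transcripts followed the same division. Ighm was at 1074 CPM in Dntt+, 1285 in cycling, 3298 in Ms4a1- and 3921 in Ms4a1+ cells. Igkc was at 87.7 CPM (4 UMIs) in Dntt+, 605 in cycling, 5394 in Ms4a1- and 11820 in Ms4a1+ cells, and at 4968 in Ighd+ B cells. The 3 lambda genes Iglc1, Iglc2 and Iglc3 were summed, since Iglc2 and Iglc3 transcripts were 95.3% identical over 450 aligned bases. Their sum was 3.76 CPM (1 UMI) in cycling, 3233 in Ms4a1- and 6627 in Ms4a1+ cells; in Dntt+ cells it was 1009 CPM, but 45 of the 46 UMIs lay in 1 cell. After thinning to 1000 UMIs, lambda was found in 0 of 31 cycling cells, 57.8% of Ms4a1- and 90.8% of Ms4a1+ cells, and in 0% of T cells; Igkc was found in 58.1%, 82.8% and 96.6%, against 0.826% of T cells and 2.85% of sustentacular cells.

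Kappa and lambda transcripts often occurred in the same cell. A B cell usually makes 1 light chain type. Among cells with at least 5 light chain UMIs, kappa made up 90% or more in 17 of 18 cycling cells, 46 of 110 Ms4a1- cells (41.8%), 18 of 87 Ms4a1+ cells (20.7%) and 6 of 144 Ighd+ B cells (4.17%). Cells with more than 10% and less than 90% kappa were 1 of 18, 48 of 110 (43.6%), 63 of 87 (72.4%) and 133 of 144 (92.4%). Lambda made up 90% or more in 16 of 110 Ms4a1-, 6 of 87 Ms4a1+ and 5 of 144 Ighd+ B cells. Counts of constant regions do not separate rearranged from unrearranged genes, and the part of free RNA in the mixed cells was not tested. No UMI of Ighg1, Ighg2c, Ighg3 or Jchain, genes of switched or antibody-secreting cells, was present in the members. The plasma cell list of 9 genes, which includes Jchain, still summed to 1491, 635, 938 and 645 CPM in Dntt+, cycling, Ms4a1- and Ms4a1+ cells. It was at 533 CPM in Ighd+ B cells. Of its 5 measured genes, 1 (Slamf7) was higher than in Ighd+ B cells and none lower, with a median log2 ratio of 1.76. With at least 20 UMIs the median was 0.56 over 3 genes.

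**Figure D3:**
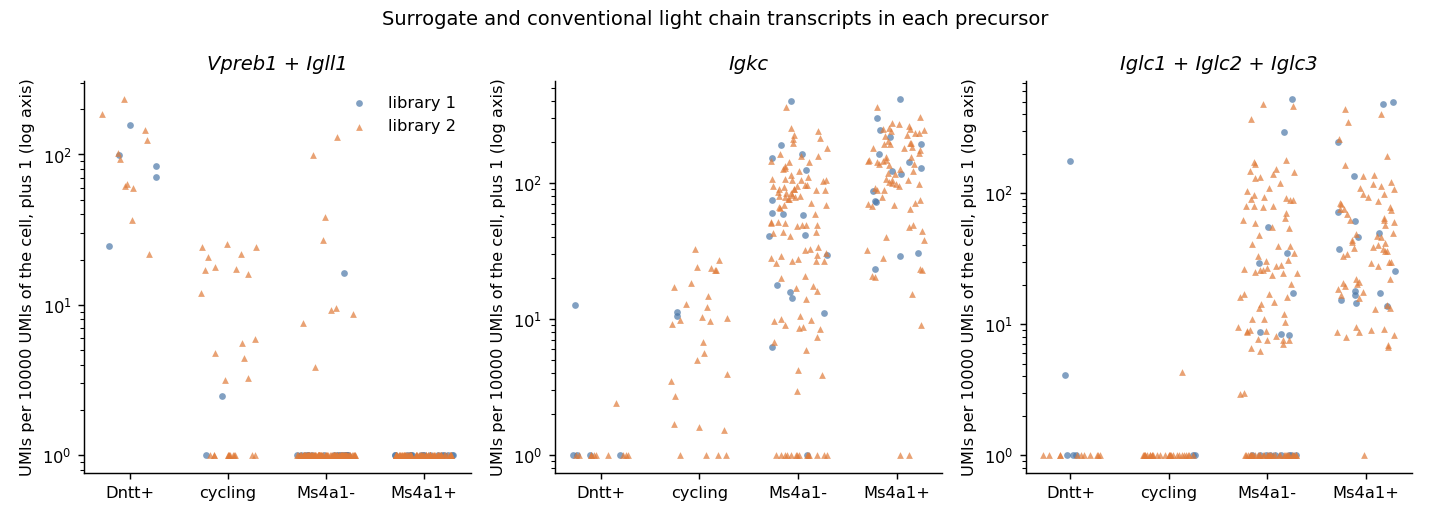
Each of the 262 precursors is a point, by group, with circles for library 1 and triangles for library 2; the axis is UMIs of Vpreb1 and Igll1 (left), Igkc (middle) and Iglc1 to Iglc3 (right) per 10000 UMIs of the cell, plus 1, on a log axis, so that a cell with no UMI sits at the bottom line. All 16 Dntt+ cells are above the bottom line on the left and all 87 Ms4a1+ cells are on it, while 1 of 31 cycling cells has a lambda UMI and 86 of 87 Ms4a1+ cells do.

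Among the 4 groups, summed levels of Cd74 and H2-Eb1, genes of class II antigen presentation, were highest in Ms4a1+ cells. Cd74, the invariant chain, was at 43.9 CPM in Dntt+, 56.3 in cycling, 1093 in Ms4a1- and 8394 in Ms4a1+ cells. In Ighd+ B cells it was at 10558 CPM. H2-Eb1, a class II chain, was at 0, 18.8, 158 and 1071 CPM in the same 4 groups and at 3559 in Ighd+ B cells. In cells with an Ighd UMI and a UMI of Vpreb1, Vpreb3 or Igll1, H2-Eb1 was at 2191 CPM. Fcmr, the IgM Fc receptor, was at 0, 0, 60.9 and 382 CPM. Of 23 genes of the immature and mature B cell surface list with at least 20 UMIs in the members, 18 were at least 2-fold higher in Ms4a1+ cells than in the other members, with a median log2 ratio of 2.56; of all 4627 such genes 8.52% were, with a median of -0.12. Of 12 genes of the receptor signalling list, 4 were higher. Among the genes named for Ms4a1+ cells by size, Rgs13 had UMIs in 3 of the 87 cells only, and Apoe had 96.5% of its UMIs in 3 cells, whereas Cd74 was found in 75 of 87, H2-Eb1 in 35 of 87 and Scd1, a fatty acid desaturase, in 43 of 87.

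Cycling cells were lower in surface and stimulus-response genes. The genes named for them by size were mitotic (Cdk1, Ube2c, Ccna2, Cenpf, Birc5, Tpx2, Ccnb1 and Nusap1), as the split by Mki67 and Top2a would select. Of the immature and mature surface list 21 of 23 genes were at least 2-fold lower in cycling cells than in the other members, and of the immediate early and dissociation list 15 of 18 were, against 22.5% of all 4627 genes. Fos was at 93.9 CPM in cycling cells against 965, 776 and 990 in Dntt+, Ms4a1- and Ms4a1+ cells. Btg1, which restrains division, was at 541 CPM against 1118, 3469 and 4635. The 8 genes named for Ms4a1- cells (Bpifa1, Reg3g, Slpi, Cyp2a5, Lypd2, Cyp2g1, Cyp1a2 and Pon1) are secretory or xenobiotic genes of the epithelium and its glands; between 83.8% (Lypd2) and 99.2% (Bpifa1) of the UMIs of each lay in 3 cells. Without marker-holding cells, Bpifa1 was still at 14897 CPM and Reg3g at 1699 CPM in Ms4a1- cells.

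Against Ighd+ B cells, levels summed over all precursors were higher for 21 of 22 G2 and mitosis genes and 6 of 10 recombination and repair genes. They were lower for 18 of 31 immature and mature B cell surface genes. Of 8814 genes outside the rule at 10 CPM or more in either group, 740 (8.4%) were at least 2-fold higher and 586 (6.65%) at least 2-fold lower in both libraries, with a median log2 ratio of 0.1. Without the 32 marker-holding cells 973 were higher and 498 lower. With at least 20 UMIs over both groups, 497 of 5947 (8.36%) were higher and 222 (3.73%) lower. Ratios are of CPM plus 1, while the intervals of ratios are computed without the added 1. The G2 and mitosis list had a median log2 ratio of 4.77, or 3.41 when the 7 genes at 0 in one group are placed at their bound of 3 counts, and 5.93 without cells holding markers of another class. Mki67 and Top2a, which define the cycling cells, are in this list. Summed over its 22 genes, the list was at 7787 CPM in cycling and 965 CPM in Dntt+ cells. It was at 329 CPM in Ms4a1- and 175 CPM in Ms4a1+ cells, against 250 CPM in Ighd+ B cells. Of replication-dependent histones 8 of 8 were higher (median 3.96, or 2.73 with bounds), and of S phase genes 7 of 20 (1.68, or 1.57). The S phase median was 0.53 in library 1, which had 2 cycling cells, and 2.57 in library 2. Nusap1, a mitotic spindle protein, was at 130 and 156 CPM in the precursors of libraries 1 and 2 and at 0 in Ighd+ B cells of both, at least 17-fold higher against a floor of 3 counts over both libraries.

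Of 10 measured V(D)J recombination and repair genes, 6 were higher (Rag1, Dntt, Lig4, Xrcc6, Hmgb1 and Hmgb2) and none was lower, with a median log2 ratio of 2.37, or 1.87 with bounds. Rag1 was at 190 and 63.2 CPM against 0 and 0, at least 8.64-fold higher. Hmgb2, a chromatin protein that is a recombinase cofactor and is also abundant in dividing cells, was at 2442 and 2422 CPM against 506 and 345 (log2 ratio 2.55, 2.3 to 2.82). Each of the 6 genes was higher in the precursors of both libraries, which the rule for counting a gene as higher required. The role of dividing cells in the list's values was not tested separately.

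Of 16 genes of the pro-B and early pre-B surface and cytokine list, 6 were higher (Il7r, Cd93, Cd24a, Stat5a, Arpp21 and Tifa) and 1 lower (Jak3, on 5 UMIs in each group), with a median of 0.21, or 0.76 without cells holding markers of another class. Il7r was at 462 and 289 CPM against 0 and 0, at least 34.3-fold higher. Cd24a, a surface sialoglycoprotein, was at 2371 and 1622 CPM against 297 and 247 (log2 ratio 2.67, 2.36 to 3). Kit was near the floor in both groups, with 3 and 4 UMIs, and Cd34 was at 0. Of 25 B lineage transcription factors 6 were higher (Tcf3, Irf4, Spib, Lef1, Myb and Sox4) and none lower, with a median of 0.28. Myb was at 332 and 317 CPM against 0 and 5.15 (1 UMI), with a log2 ratio of 6.32. Without the added 1 the ratio was 6.73, with an interval of 4.24 to 12. Sox4 was at 439 and 314 CPM against 28.9 and 41.2 (3.15, 2.36 to 4.16). Pax5 was at 107 and 142 CPM against 72.3 and 124 and did not pass the 2-fold threshold.

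Of 31 immature and mature B cell surface genes, 18 were lower in the precursors and 1 (S1pr4) was higher, with a median log2 ratio of -1.81. H2-Aa, a class II chain, was at 261 and 197 CPM against 3031 and 2772 (-3.81, -4.07 to -3.56). Ciita, the class II transactivator, was at 11.9 and 14.2 CPM against 137 and 118 (-3.09, or -3.18 without the added 1, with an interval of -4.34 to -2.16). Cr2 and Ccr6, a complement receptor and a chemokine receptor of mature B cells, had no UMI in the precursors. Gpr183, an oxysterol receptor that positions mature B cells, was at 0 and 4.74 CPM against 123 and 134. Of the named genes with lower levels, Fabp7 and Ccl4 were measured almost wholly in library 2 of the Ighd+ B cells (567 and 598 CPM against 7.23 CPM each in library 1). Sult1e1 was at 0 and 4.74 CPM against 398 and 97.9. Once cells with markers of another class were left out, it was at 1.82 CPM in precursors and 0 in Ighd+ B cells. The log2 ratio of 1.49 there rests on values near the floor and gives no direction, so the lower level depends on those cells.

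Lists that carry the B cell receptor itself differed little. Of 13 receptor signalling genes 2 were lower (Cd22 and Bank1) and none higher, with a median of -0.05; Cd22 is an inhibitory coreceptor and Bank1 an adaptor. Of 15 homing genes 3 were lower (Itgb1, Cxcr5 and Gpr183) and 1 higher (S1pr4), with a median of -0.94, and Cxcr4, the receptor that holds precursors in the marrow, was at 379 and 303 CPM against 246 and 562, which is higher in one library and lower in the other. Of 19 immediate early genes 5 were lower (Egr1, Ier2, Nr4a1, Klf6 and Atf3), with medians of -0.06 in library 1 and -0.99 in library 2. Of 12 survival genes 3 were lower (Bcl2, Pmaip1 and Bcl2a1b). Bcl2, which blocks cell death, was at 23.7 and 20.5 CPM against 65.1 and 67. Of 12 interferon genes 2 were lower (Irf7 and Ly6a), and of 12 glycolysis genes none passed in either direction.

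**Figure D4:**
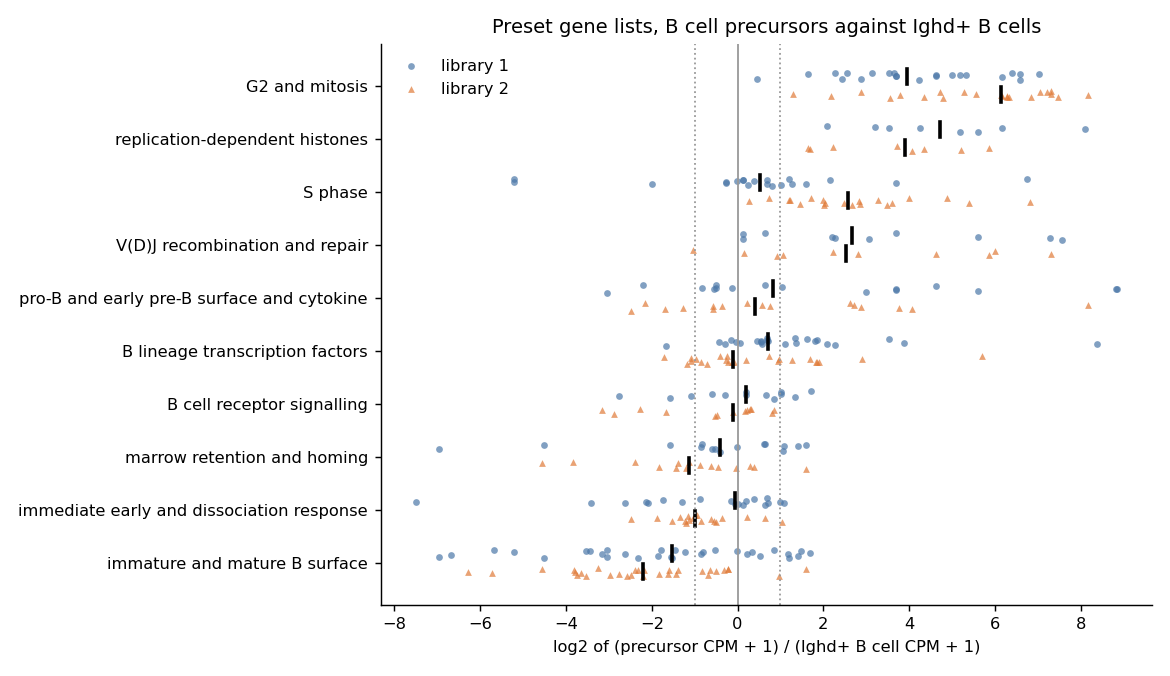
Each point is a gene of a preset list, at the log2 ratio of precursor to Ighd+ B cell levels (CPM plus 1), with circles for library 1, triangles for library 2 and black bars for the median in each library; dotted lines mark 2-fold. The division lists, with medians of 4.77 (G2 and mitosis) and 3.96 (histones) over both libraries, lie to the right, and the immature and mature surface list, at -1.81, lies to the left.

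Against all other kept cells, the genes named by size included genes of B cells in general, for which the Cd79 part of the rule selects, and genes of precursors such as Rag1 and Dntt. Iglc1 was at 2027 and 976 CPM in the members of libraries 1 and 2 against 8.8 and 8.86 CPM in other cells. Pou2af1, a B cell coactivator, was at 332 and 219 CPM against 1.87 and 1.87. Also named by size were Arl5c, Fcrla, Fam129c, Myl4, Rag1, Spib, Chst3, Siglecg, Rhoh, Cd72, Ptprcap and Dntt.

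Between the libraries, of 2013 genes with at least 50 UMIs in the members, 168 (8.35%) were at least 2-fold higher in library 2 and 37 (1.84%) at least 2-fold lower, with a median log2 ratio of 0.01. The genes named as higher were S100a8, S100a9, Lcn2, Wfdc21, Retnlg, Ltf, Obp2b and Sox11, each at 0 in library 1. S100a8 was at 0 in library 1 and 5936 CPM in library 2, where 99.1% of its UMIs came from 3 cells, and it was at 57 CPM without marker-holding cells. Sox11 had 89.8% of its UMIs in 3 cells. Retnlg had 100% of its UMIs in 3 cells, and without marker-holding cells its log2 ratio was 0. Obp2b, an odorant-binding protein, was less concentrated, with 46.8% of its UMIs in 3 cells, and was at 251 CPM in library 2 without marker-holding cells. Without the 32 marker-holding cells 98 genes were higher and 18 lower.

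Genes named as lower in library 2 included Rag1 (190 and 63.2 CPM in libraries 1 and 2, log2 ratio -1.57, -2.46 to -0.65) and Sgk1, a stress-responsive kinase (178 and 71.1 CPM). Il16, Cpm, Pnp, Ephx1, Nr1h2 and Gimap6 were the others. Without the marker-holding cells, Cpm (-0.48) and Ephx1 (-0.6) were under 2-fold, and as a mean over cells Sgk1 (-0.3), Gimap6 (-0.78) and Ephx1 (-0.81) were. Rag1 was found in 10 of 41 and 32 of 221 precursors. The lambda genes were lower in library 2 as well, with Iglc1 at 2027 and 976, Iglc2 at 1576 and 790 and Iglc3 at 1221 and 594 CPM. Iglc1 and Iglc3 passed 2-fold and Iglc2 did not. Without the marker-holding cells, Iglc1 (-0.89) and Iglc3 (-0.97) were also under 2-fold. Igkc was at 6863 and 4423 CPM and Ighm at 3200 and 2462 CPM, neither 2-fold apart. Cycling cells held 254148 of the members' 633289 UMIs in library 2 and 12074 of 84367 in library 1, and the part of that in these ratios was not tested.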

How the data were processed

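The authors deposited 1 matrix of integer UMI counts over 31053 genes and 12491 barcodes of both libraries; per the submitters' processing notes it came from Cell Ranger 3.0.2 on mm10, and no source used here says whether aggregation equalised depth. A library was read from the barcode suffix (unit other, a label and not a measurement). Kept cells, members and comparison groups followed the rules given above; members and gene lists were chosen with earlier results of these data known. UMIs were summed per group and library and scaled to CPM, and ratios are log2 of CPM plus 1. Intervals at 95% are exact: Poisson for levels, Clopper-Pearson for shares, conditional binomial for ratios without the added 1. A gene counted as higher or lower when 2-fold apart in both libraries. This step was tested on simulated Poisson counts, for genes at 100 CPM or more only. Lower levels and UMIs concentrated in few cells were not covered. Against Ighd+ B cells up to 15 genes in each direction were named, between libraries and within groups up to 8, by largest ratio with at least 50 UMIs. Doublets were kept. A few genes that the rules would name are not reported here. Gene IDs matched GENCODE M21 for 30934 genes (99.6%). The software was scipy 1.17.1, numpy 2.4.6, matplotlib 3.10.9 and pandas 2.3.3 under Python 3.11.15. Alternatives were other cell filters and rule thresholds, leaving out cells with markers of another class, 10 CPM added, means over cells, each library alone, thinning to 2000 or 1000 UMIs and other filters on low levels; thinning to 1000 and the 20 UMI filter were chosen after seeing the data.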

Additional observations from a re-analysis of the deposited data

Results flagged for a closer look

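Against Ighd+ B cells, 4 preset lists had medians of opposite sign in the libraries; the difference between libraries was not tested. The B cell receptor signalling list had a median log2 ratio of 0.2 in library 1 and -0.11 in library 2. The B lineage transcription factor list was at 0.71 and -0.09. The immunoglobulin constant and joining list was at 0.57 and -0.12. The survival and apoptosis list was at 0.41 and -0.08.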

How the results depend on the processing

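Library 2 held the larger share of precursors under each alternative run. With at least 2500 UMIs the shares of kept cells were 0.298% in library 1 and 1.18% in library 2, and with every cell thinned to 2000 UMIs before the rule 0.322% and 1.34%, or 20% and 62.6% of Cd79+ cells. The library 2 share of kept cells was 3.42% with no cell filter and 3.63% without cells holding markers of another class, and its share of Cd79+ cells was 44.7% without those cells and 46.1% with at least 2 UMIs of Vpreb1, Vpreb3 and Igll1. The 4 groups depended on depth: Dntt+, cycling, Ms4a1- and Ms4a1+ cells were 11.7%, 50%, 21.7% and 16.7% of members with at least 2500 UMIs. With at most 5% mitochondrial UMIs the first 3 were 10.2%, 19.5% and 42.4%. Thinned to 2000 UMIs, cycling was 27.3% and Ms4a1+ 20.8%; thinned to 1000, cycling was 6.49%, Ms4a1- 61.5% and Ms4a1+ 27.5%. In library 1 alone Dntt+ was 12.2% and cycling 4.88%.

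Counts of genes against Ighd+ B cells (740 higher, 586 lower) were 472 and 250 with 10 CPM added, 2059 and 2159 in library 1 alone, and 1878 and 1299 in library 2 alone, where 2-fold in 1 library is enough. The lower count was 1118 with at least 2500 UMIs and 222 with at least 20 UMIs over both groups. Preset lists with a median 2-fold or more higher were 5, and 3 in library 1 alone; lists 2-fold or more lower were 1, and 5 with at least 2500 UMIs, 3 with at most 5% mitochondrial UMIs, and 2 in library 2 alone, with no filter on low levels, without marker-holding cells and with at least 2 UMIs of Vpreb1, Vpreb3 and Igll1. Between libraries (168 higher, 37 lower), the counts were 98 and 18 without marker-holding cells, 102 were higher with at most 5% mitochondrial UMIs, and 59 were lower with at least 2500 UMIs. Of 776 values of named genes under an alternative, 760 kept their direction at 2-fold or more, 10 were under 2-fold and 6 reversed. Part of the 760 was fixed in advance. Genes named against Ighd+ B cells and within groups had to be 2-fold in both libraries, so each library alone had to pass. The filters on low levels leave ratios of single genes unchanged. Any change of sign counted as reversed, whatever its size. Reversed was Sult1e1 against Ighd+ B cells, at 1.77 with at most 5% mitochondrial UMIs and 1.49 without marker-holding cells. With at most 5% mitochondrial UMIs, Ephx1 between libraries (0.95) and, in Ms4a1- cells, Cyp2g1 (-0.42), Cyp1a2 (-0.012) and Pon1 (-4.31) also reversed. Cyp1a2 thus showed almost no difference, like Cyp2a5 (0.036), which counted as under 2-fold. The cause was not tested for any of these changes. Library 1 limits every comparison, with 41 precursors in which 1 UMI is 11.9 CPM. No paired analysis was possible because each side is 1 library with no test.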
